A study of Mus musculus with 4 samples.

Results

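The collagen genes measured here are the array probes, control spots left out, whose gene name in the scanner files is Col, a number, a and a number as a whole. The rule found 78 probes for 40 genes, of 41174 probes and 27962 gene names in all. By protein type they were 11 fibrillar, 6 basement membrane, 2 anchoring, 2 multiplexin, 4 beaded filament, 9 fibril-associated, 3 network and 3 other transmembrane genes. A filter on dim probes kept 72 of the 78 probes and 39 of the 40 genes. Col10a1, a network collagen of cartilage, was the gene without a kept probe. The RNA came from primary epidermal keratinocytes of postnatal day 3 mice that all carried K5-Cre and 1 loxP-flanked Casp8 allele, which Cre can delete. The second Casp8 allele was null in the mice labelled Casp-8F/–K5-Cre (F/- below) and wild-type in those labelled Casp-8F/+K5-Cre (F/+). Per the series text, cells of 2 mice per genotype were cultured and sampled at passage 1 (early) and passage 3 (late), so each genotype had 2 cultures at each passage. Each of 4 two-colour Agilent arrays was hybridised with 1 pair of cultures, F/- RNA in Cy3 and F/+ RNA in Cy5.

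Collagens are secreted or membrane-bound proteins whose chains wind into triple helices. Fibrillar collagens (types I, II, III, V, XI, XXIV and XXVII) form the tensile fibrils of dermis and cartilage, and in skin they are made mainly by fibroblasts. Type IV collagen forms the sheet-like network of basement membranes. In skin, basal keratinocytes are held to that membrane by hemidesmosomes, which contain the transmembrane collagen XVII (Col17a1), and the membrane is tied to the dermis by anchoring fibrils of collagen VII (Col7a1). Keratinocytes make both of these collagens. Each chain is hydroxylated, folded, trimmed and crosslinked by a shared set of enzymes, and cells bind collagens through integrins and discoidin domain receptors.

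The share of spots well above background was 75.8% to 87.9% per channel and array, and 0 spots were saturated. Of the 39 genes, 37 were above background in both channels on all 4 arrays, the exceptions being Col19a1 and Col28a1. No array exchanged the dyes, so dye and genotype cannot be told apart in a ratio. A dye effect that is equal on all arrays cancels between passages. The 12 keratinocyte markers on the list were all above background in both channels on all arrays, as were all 12 macrophage and leukocyte markers and all 8 melanocyte markers. The Casp8 probe had log2 ratios of F/- over F/+ of 0.42 (pair 1) and 0.18 (pair 2) at passage 1 and of 0.47 and -0.20 at passage 3, above 0 on 3 of 4. Its place relative to the deleted part of Casp8 is not known here, so it does not check the genotype labels. All directions below rest on those labels and on the dyes they name.

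The main genotype comparison averaged the log2 ratio of F/- over F/+ over all 4 arrays. It was tested with limma over 35574 probes, with Benjamini-Hochberg adjusted p under 0.05 as the threshold. A gene's value is that of its brightest kept probe. Of 39 collagen genes, 8 passed, 6 higher and 2 lower in F/-. Over all 24248 gene names on the same terms, 8.08% passed, 4.66% higher and 3.41% lower. The higher genes were Col5a3 and Col5a2 (fibrillar), Col4a2 (basement membrane), Col7a1 (anchoring), and Col12a1 and Col16a1 (fibril-associated). The lower genes were Col17a1 (anchoring) and Col4a6 (basement membrane). Over the collagens the median log2 ratio was 0.14, with 27 of 39 above 0, against a median of -0.023, with 10452 of 24248 above 0, over all gene names. The ratio was above 0 on all 4 arrays for 15 collagen genes and below 0 on all 4 for 6. These sign counts were not taken over all gene names. When the 2 arrays of a pair, which share their mice, were averaged first, 0 collagens passed, the smallest adjusted p being 0.0508, and 0 of all probes passed. With the pair as a block 12 passed, 11 higher and 1 lower. Among all probes that block had 2096 higher and 1132 lower, against 2080 and 1064 in the main fit. Leaving out either passage 1 array, or that of passage 3 and pair 1, gave 0. Leaving out that of passage 3 and pair 2 gave 12. With 1 array left out, a passage had 1 array. The count over all probes was not taken for these fits, so their collagen counts have no share to be set against. Values of the 4 arrays are given below for pair 1 and then pair 2 at passage 1, and likewise at passage 3.

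**Figure D1:**
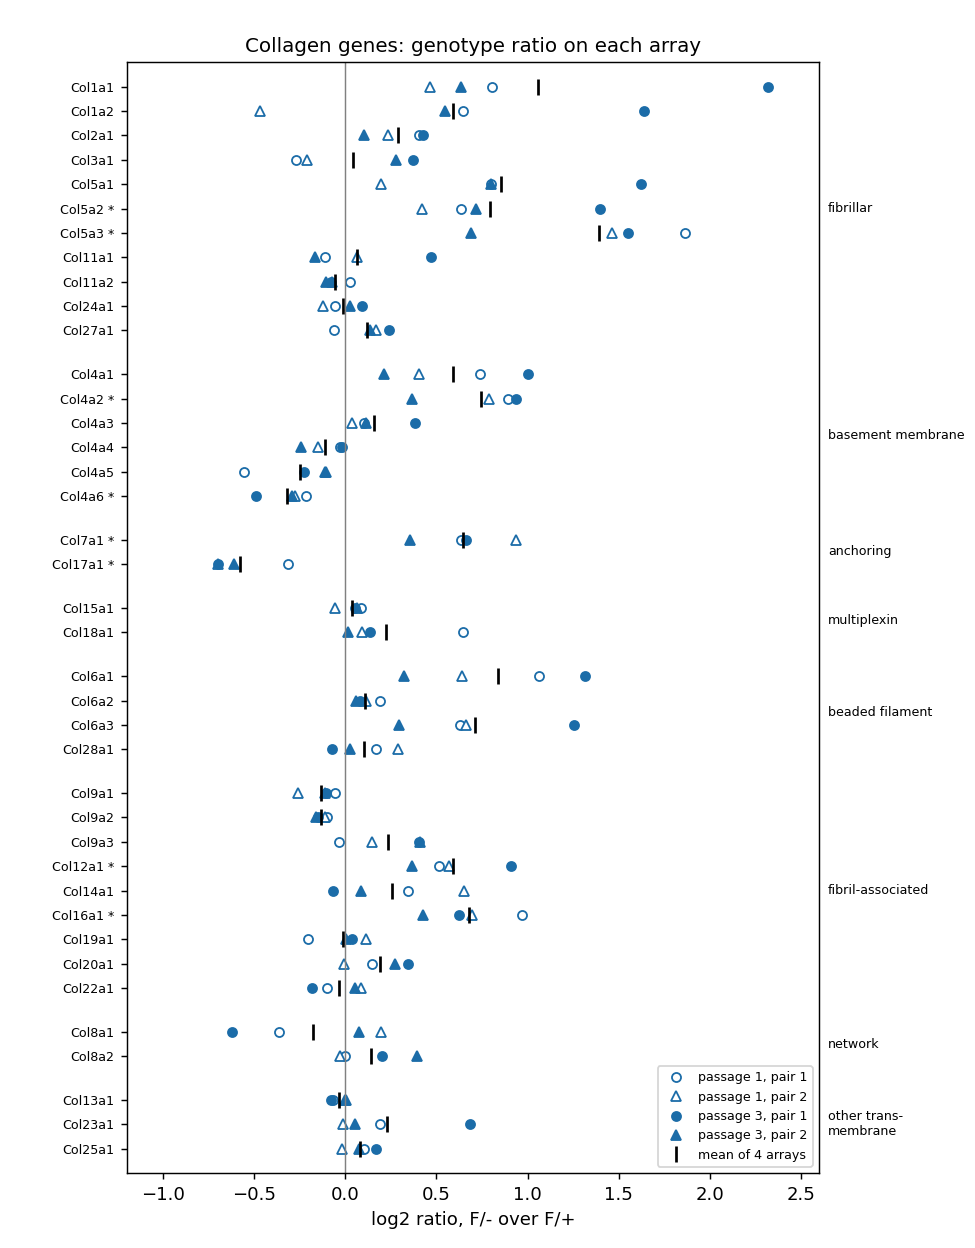
Log2 ratio of F/- over F/+ on each of the 4 arrays (open symbols passage 1, filled symbols passage 3, circles pair 1, triangles pair 2) for the 39 collagen genes, grouped by protein type, with the mean of 4 arrays as a black bar and an asterisk at the 8 genes past an adjusted p of 0.05. Col5a3 lies between 0.69 and 1.86, Col17a1 lies between -0.70 and -0.32, and Col1a1 is spread from 0.46 to 2.32.

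Among fibrillar collagens 2 of 11 passed, both higher, and the median log2 ratio was 0.29 with 9 of 11 above 0. The median was 0.17 with median centring or with the mean of each gene's probes, and 0.053 over all 24 kept fibrillar probes, of which 15 were above 0. The 2 genes that passed, Col5a3 and Col5a2, encode chains of type V collagen, a minor collagen that starts fibrils and limits their width. Col5a3 had log2 ratios of 1.86 and 1.47 at passage 1 and of 1.55 and 0.69 at passage 3. It was high on all 4 arrays and lowest at passage 3 in pair 2. The mean of 1.39 ± 0.50 (SD, n = 4 arrays, limma adjusted p = 0.02615) is 2.63-fold. By brightest probe it was the collagen with the highest mean ratio, and the only one past 1 log2 unit on both arrays of a passage. A second Col5a3 probe averaged -0.095, so the call rests on 1 probe. With the mean of its probes Col5a3 was at 0.65, still past the threshold (adjusted p = 0.0411).

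Col5a2, the second type V chain gene, had log2 ratios of 0.64 and 0.42 at passage 1 and 1.40 and 0.72 at passage 3. All 4 were above 0, and both late values lay above both early ones. Its mean was 0.79 ± 0.42 (SD, n = 4 arrays, limma adjusted p = 0.0353). Col5a1, which encodes the chain common to most type V molecules, had ratios of 0.80, 0.20, 1.62 and 0.80 in the same order. Its mean of 0.86 ± 0.59 missed the threshold (limma adjusted p = 0.05134) and passed it with the pair as a block (0.02833).

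Type I collagen, the main collagen of dermis, is built from the products of Col1a1 and Col1a2. Col1a1 had log2 ratios of 0.81 and 0.46 at passage 1 and 2.32 and 0.63 at passage 3. It was above 0 on all 4, but at passage 3 pair 1 stood far above the rest. The mean of 1.06 ± 0.86 (SD, n = 4 arrays) did not pass (limma adjusted p = 0.08578), and did with the pair as a block (0.04315) or without pair 2 of passage 3 (0.02134). Its other kept probes averaged 0.54 and -0.049. Col1a2 ranged from -0.47 (passage 1, pair 2) to 1.64 (passage 3, pair 1), with a mean of 0.59 ± 0.86 (adjusted p = 0.211, and 0.02943 with the pair as a block). For Col1a2 the spread between arrays exceeded the mean.

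Col3a1, the chain of type III collagen, which mixes with type I in young dermis, had ratios of -0.27 and -0.21 at passage 1 and 0.37 and 0.28 at passage 3. The passages did not overlap, and the mean over both was 0.042 (adjusted p = 0.6583). The remaining fibrillar genes are mostly known from cartilage, and none passed. Col2a1 averaged 0.29 and was above 0 on every array. Col27a1 averaged 0.12, Col11a1 0.064, Col24a1 -0.014 and Col11a2 -0.057. These 4 had values on both sides of 0. At passage 3 pair 1 read higher than pair 2 for all 11 fibrillar genes, and for 28 of the 39 collagens. This was not counted over all gene names. The medians of the lists of other genes below had the same order, except for melanocyte markers. For collagen maturation genes they were 0.51 in pair 1 and 0.16 in pair 2. At passage 1 the fibrillar median was also higher in pair 1 (0.40) than in pair 2 (0.17). So was that of collagen maturation genes, at 0.56 and 0.054. The order at passage 1 was the reverse for partners of type IV collagen and for keratinocyte, endothelial, and muscle and pericyte markers.

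The 250 bases before the annotated start of Col5a3 are shown because it is the collagen with the highest genotype ratio. They lie at chr9:20815068-20815317 on the minus strand (RefSeq, GRCm38.p6), and capitals mark the motif letters found.

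Col5a3: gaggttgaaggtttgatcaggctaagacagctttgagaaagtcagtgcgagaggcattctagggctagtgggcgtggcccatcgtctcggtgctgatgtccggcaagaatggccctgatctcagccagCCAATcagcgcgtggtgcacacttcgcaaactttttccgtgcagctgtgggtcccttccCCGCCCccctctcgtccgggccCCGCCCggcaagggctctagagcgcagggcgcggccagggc

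The motifs searched, on both strands, were the GC box GGGCGG, the CCAAT box CCAAT, the TATA box TATAAA and the AP-1 site TGANTCA. Col5a3 held 2 GC boxes and 1 CCAAT box. Of 32851 promoter windows of this length, 32.7% held a GC box, 33.8% a CCAAT box, 12.4% a TATA box and 6.75% an AP-1 site. Of 35 windows of the 32 collagen genes with an entry, the shares were 54.3%, 34.3%, 14.3% and 2.86%. A match is a description of the letters and not a shown binding site.

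Among the 6 basement membrane collagens 1 passed as higher and 1 as lower, and their median log2 ratio of 0.025 turned to -0.037 with median centring. Type IV chains are encoded in head-to-head pairs of genes. Col4a1 and Col4a2, which encode the chains present in nearly all basement membranes, start 21 bases apart on opposite strands. Col4a2 had log2 ratios of 0.89 and 0.79 at passage 1 and 0.94 and 0.37 at passage 3. Its mean was 0.75 ± 0.26 (SD, n = 4 arrays, limma adjusted p = 0.03061), and a second probe averaged 0.82 and passed as well. With median centring the mean fell to 0.46 (adjusted p = 0.05141). Col4a1 read 0.74, 0.40, 1.00 and 0.21 in the same order. The mean of 0.59 ± 0.35 missed the threshold (0.07578), while its second probe, at 0.78, passed, and the brightest probe passed with the pair as a block (0.03523). Both genes were above 0 on all 4 arrays and lowest at passage 3 in pair 2.

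The other type IV pairs had means near or below 0. Col4a3 and Col4a4, whose chains build the specialised membranes of kidney, lung and eye, had means of 0.16 ± 0.15 and -0.11 ± 0.11 (SD, n = 4 arrays), neither past the threshold. Col4a5 and Col4a6 lie head to head on the X chromosome with starts 1343 bases apart, and their chains occur in the basement membrane of skin. Col4a6 had ratios of -0.21 and -0.27 at passage 1 and -0.49 and -0.29 at passage 3, all below 0. Its mean of -0.32 ± 0.12 just passed (limma adjusted p = 0.04696). This call was lost with 10 of 13 other settings, among them the pair as a block (0.06495) and the scanner's own signals (0.08702). A second probe averaged -0.48 and did not pass, and its last one averaged -0.040. Col4a5 read -0.56, -0.11, -0.22 and -0.11, with a mean of -0.25 ± 0.21 that did not pass.

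The 250 bases before the starts of this X-linked pair are shown because both genes read below 0 on every array, unlike Col4a1 and Col4a2. The Col4a5 window lies at chrX:141475169-141475418 on the plus strand and the Col4a6 window at chrX:141474077-141474326 on the minus strand (RefSeq, GRCm38.p6), with motif letters in capitals.

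Col4a5: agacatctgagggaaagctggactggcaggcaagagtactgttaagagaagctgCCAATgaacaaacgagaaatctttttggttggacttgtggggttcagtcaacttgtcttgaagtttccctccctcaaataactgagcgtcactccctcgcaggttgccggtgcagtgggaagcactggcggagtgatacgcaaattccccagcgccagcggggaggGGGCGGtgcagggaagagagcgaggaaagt
Col4a6: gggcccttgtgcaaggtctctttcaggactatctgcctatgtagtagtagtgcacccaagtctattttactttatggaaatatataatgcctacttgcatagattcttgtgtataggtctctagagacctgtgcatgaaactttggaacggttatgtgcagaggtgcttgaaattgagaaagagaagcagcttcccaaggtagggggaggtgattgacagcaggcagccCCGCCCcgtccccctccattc

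Both windows held 1 GC box, and that of Col4a5 also held 1 CCAAT box.

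The 2 anchoring collagens passed in opposite directions. Col7a1, the sole chain of the anchoring fibril, had log2 ratios of 0.64 and 0.93 at passage 1 and 0.66 and 0.36 at passage 3. All were above 0, with a mean of 0.65 ± 0.24 (SD, n = 4 arrays, limma adjusted p = 0.02824), or 1.57-fold. The size of this ratio depended on the normalization. With median centring in place of loess it was 0.082 (adjusted p = 0.6986). Col17a1, the hemidesmosomal collagen that spans the cell membrane, read -0.32 and -0.70 at passage 1 and -0.70 and -0.61 at passage 3. All were below 0, with a mean of -0.58 ± 0.18 (SD, n = 4 arrays, adjusted p = 0.02985). With median centring the mean was -1.21 (0.01626). The call was lost with the scanner's own signals (-0.45, adjusted p = 0.0702) and with the mean of its probes (-0.30, 0.144). Its second probe read 0.45, -0.25, 0.026 and -0.29.

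The 250 bases before the starts of these genes are shown because their brightest probes passed in opposite directions in the main genotype comparison. Col7a1 is at chr9:108953336-108953585 on the plus strand and Col17a1 at chr19:47692043-47692292 on the minus strand (RefSeq, GRCm38.p6), with motif letters in capitals.

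Col7a1: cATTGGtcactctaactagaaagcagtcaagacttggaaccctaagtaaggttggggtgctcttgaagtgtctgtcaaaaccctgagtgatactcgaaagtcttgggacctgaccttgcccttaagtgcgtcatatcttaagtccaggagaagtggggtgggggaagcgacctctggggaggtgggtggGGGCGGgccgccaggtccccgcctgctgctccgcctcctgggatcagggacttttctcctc
Col17a1: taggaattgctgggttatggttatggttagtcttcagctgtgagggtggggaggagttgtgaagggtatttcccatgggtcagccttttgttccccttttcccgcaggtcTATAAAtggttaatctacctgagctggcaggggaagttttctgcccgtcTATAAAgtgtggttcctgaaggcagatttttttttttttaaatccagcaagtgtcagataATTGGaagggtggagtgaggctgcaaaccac

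The Col7a1 window held 1 GC box and 1 CCAAT box on the reverse strand, written ATTGG. The Col17a1 window held 2 TATA boxes, 1 CCAAT box and 0 GC boxes.

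Fibril-associated collagens sit on the surface of fibrils or at their borders with basement membranes. Of 9 measured, 2 passed, both higher. Col16a1, found at the dermal-epidermal border, had log2 ratios of 0.97 and 0.69 at passage 1 and 0.62 and 0.43 at passage 3. Both early values exceeded both late ones, and the mean was 0.68 ± 0.22 (SD, n = 4 arrays, limma adjusted p = 0.02571). A second probe averaged -0.018. With the mean of both probes Col16a1 was at 0.33 (adjusted p = 0.04793), and with median centring at 0.39 (0.03836). Col12a1, which bridges type I fibrils, read 0.51, 0.57, 0.91 and 0.36, with a mean of 0.59 ± 0.23 (adjusted p = 0.04043). The size of this ratio depended on the background handling, at 1.09 with an offset of 0 and 1.33 with the scanner's own signals, past the threshold with both. Col14a1, a related fibril-surface collagen, read 0.34 and 0.65 at passage 1 and -0.066 and 0.087 at passage 3, with a mean of 0.25 that did not pass.

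Type VI collagen forms beaded microfilaments around cells. Its chain gene Col6a1 read 1.07, 0.64, 1.32 and 0.32, with a mean of 0.84 ± 0.44 (SD, n = 4 arrays, limma adjusted p = 0.05838), and passed with the pair as a block (0.0301). Col6a3 averaged 0.71 ± 0.40 (0.06437), and Col6a2 averaged 0.11 ± 0.058 (0.2439). The multiplexin Col18a1, a basement membrane collagen whose C-terminal fragment is endostatin, averaged 0.22 ± 0.29 and did not pass. Its second probe, at 0.62, passed, while with median centring the brightest probe read -0.53 and passed as lower (0.0229). The other 13 measured collagens of these classes had means between -0.18 and 0.23, and none passed.

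Probes of a gene often differed in the size of the ratio. Of 27 collagen genes with several kept probes, 12 had probes with means of opposite sign. In these 12 the means below 0 were small, the lowest being -0.138 (Col1a2). The probes below 0 were dim, with mean log2 intensities of 6.17 (Col1a2) to 7.18 (Col5a3). In Col1a1 and Col5a3 the gap exceeded 1 log2 unit. Such counts were not taken over all genes. Over 32 kept probes with a mean log2 intensity under 7, the median size of the ratio was 0.0809, against 0.2568 over the 40 brighter ones. The positions of the probes in their transcripts were not used here.

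**Figure D2:**
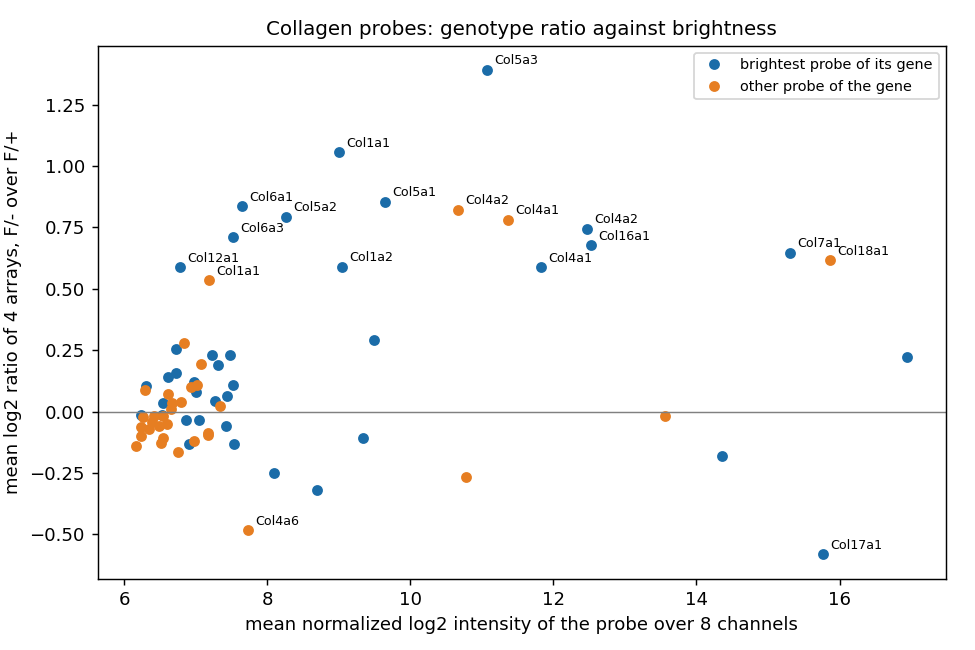
Mean log2 ratio of F/- over F/+ (vertical axis, 4 arrays) against mean normalized log2 intensity over 8 channels (horizontal axis) for the 72 kept collagen probes. Blue points are the brightest probe of a gene and orange points its other probes, with names where the ratio is past 0.45 in size. Most points left of 7 lie near 0.

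Taken passage by passage, with 2 arrays each, 0 collagens passed, as did 0 of all gene names (0%) at either passage. At an unadjusted limma p under 0.05 there were 15 collagens early and 18 late, against 4739 and 4701 of all 24248 gene names. The smallest adjusted p of a collagen was 0.07444 early (Col16a1) and 0.08524 late (Col5a2). The collagens' median ratio was 0.069 early and 0.19 late, against -0.016 and -0.023 over all gene names. The fibrillar median was 0.088 and 0.32, the early value being that of Col1a2, whose early arrays read 0.65 and -0.47. Taken by array, the fibrillar median was 0.40 and 0.17 early and 0.47 and 0.28 late.

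Whether the genotype ratio differed between passages was tested by late minus early. In this test 0 collagens and 0 of all gene names (0%) passed, with 4 of 39 collagens and 1430 of 24248 gene names at an unadjusted p under 0.05. The largest late-minus-early difference was that of Col1a2, at 1.00 ± 0.52 (SE, limma adjusted p = 0.8877). Col3a1, whose passages did not overlap, differed by 0.56 ± 0.11 (SE, adjusted p = 0.8194, unadjusted p = 0.003899). Differences below 0 included Col14a1 at -0.49 and Col5a3 at -0.55. In pair 1 the late ratio was above the early one in 24 of 39 collagens and in pair 2 in 15 of 39. Neither count was taken over all gene names.

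Passage within a genotype was taken from the separate channels, each genotype staying in one dye. The title, description and passage entry of both late arrays give passage 3 for the F/+ RNA, while its source name says first passage. The former were followed, and the F/+ values rest on that choice. From passage 1 to passage 3 in F/+, 3 of 39 collagens passed, all higher, against 6.31% of 24163 gene names (3.76% higher and 2.55% lower). In F/-, 5 passed, all higher, against 5.68% (3.26% higher and 2.42% lower). Col5a2, Col5a3 and Col7a1 passed in both genotypes. Both comparisons share their arrays, and the difference between them is the late-minus-early test above, in which none passed. For the fits with an array left out, given next, the calls over all probes were not counted. Without either early array 0 collagens passed in either genotype. Leaving out pair 1 of passage 3 gave 6 in each genotype, and leaving out its pair 2 gave 6 in F/+ and 8 in F/-.

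Col7a1 rose in both genotypes. Its normalized log2 intensity in F/+ was 13.95 and 14.05 in the early cultures of pairs 1 and 2 and 16.07 and 15.85 in the late ones. In F/- it was 14.58 and 14.98 early and 16.74 and 16.20 late. No late value overlapped an early one in either genotype. The rise was 1.96 ± 0.24 (SE, limma adjusted p = 0.005058) in F/+, or 3.89-fold, and 1.69 ± 0.24 (adjusted p = 0.01078) in F/-, or 3.22-fold.

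Col5a3 stood at 8.82 and 9.52 in the early F/+ cultures and at 11.57 and 11.61 in the late ones. In F/- it moved from 10.68 and 10.98 to 13.13 and 12.30. In both genotypes the late values lay above the early ones. The rise was 2.43 ± 0.41 in F/+ (limma adjusted p = 0.01844), or 5.37-fold, and 1.88 ± 0.41 in F/- (adjusted p = 0.04616), or 3.68-fold. The F/- call was lost without background subtraction (0.05556), with the scanner's own signals (0.0599) or with no filter (0.05127). With the mean of its probes the call was lost in both genotypes (0.1029 in F/+ and 0.1425 in F/-).

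Col5a2 went from 7.05 and 7.14 to 8.61 and 8.66 in F/+, and from 7.69 and 7.56 to 10.01 and 9.38 in F/-. Early and late did not overlap. The rise was 1.54 ± 0.30 (limma adjusted p = 0.03011) and 2.07 ± 0.30 (adjusted p = 0.01159). Col9a3, a chain of the fibril-associated type IX collagen, rose by 1.04 ± 0.16 in F/- (0.01575) and had 0.69 ± 0.16 in F/+ (0.05761). The rise in F/- was 1.60 with a background offset of 0 and 1.87 with the scanner's own signals. Col4a3 rose by 0.84 ± 0.17 in F/- (0.03631) and had 0.66 ± 0.17 in F/+ (0.0704). The call in F/- was lost with the mean of its probes (0.42, adjusted p = 0.1089) and with the pair as a block (0.05531). It held, at 1.62 and 2.09, with a background offset of 0 and with the scanner's own signals.

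Several large differences did not pass. Col1a1 had late-minus-early differences of 1.32 and 2.12 in the F/+ cultures of pairs 1 and 2 and of 2.84 and 2.29 in the F/- cultures. The mean differences were 1.72 ± 0.67 (SE, limma adjusted p = 0.2012) and 2.56 ± 0.67 (adjusted p = 0.07954, and 0.03983 with the pair as a block). Col5a1 differed by 0.81 ± 0.45 and 1.52 ± 0.45, the latter past the threshold with the pair as a block (0.04322). Col4a1 differed by 1.498 ± 0.35 in F/+ (0.05224) and 1.53 ± 0.35 in F/- (0.05139), and passed in both with the pair as a block (0.02188 and 0.02296). Col8a1, a chain of the network-forming type VIII collagen, differed by 1.43 ± 0.46 and 1.24 ± 0.46. Col17a1 had differences below 0 in both genotypes, -0.43 ± 0.20 (0.2696) and -0.57 ± 0.20 (0.1545). Col4a6 likewise had -0.39 ± 0.19 and -0.54 ± 0.19. Col3a1 had -0.091 ± 0.19 in F/+ and 0.47 ± 0.19 in F/-.

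**Figure D3:**
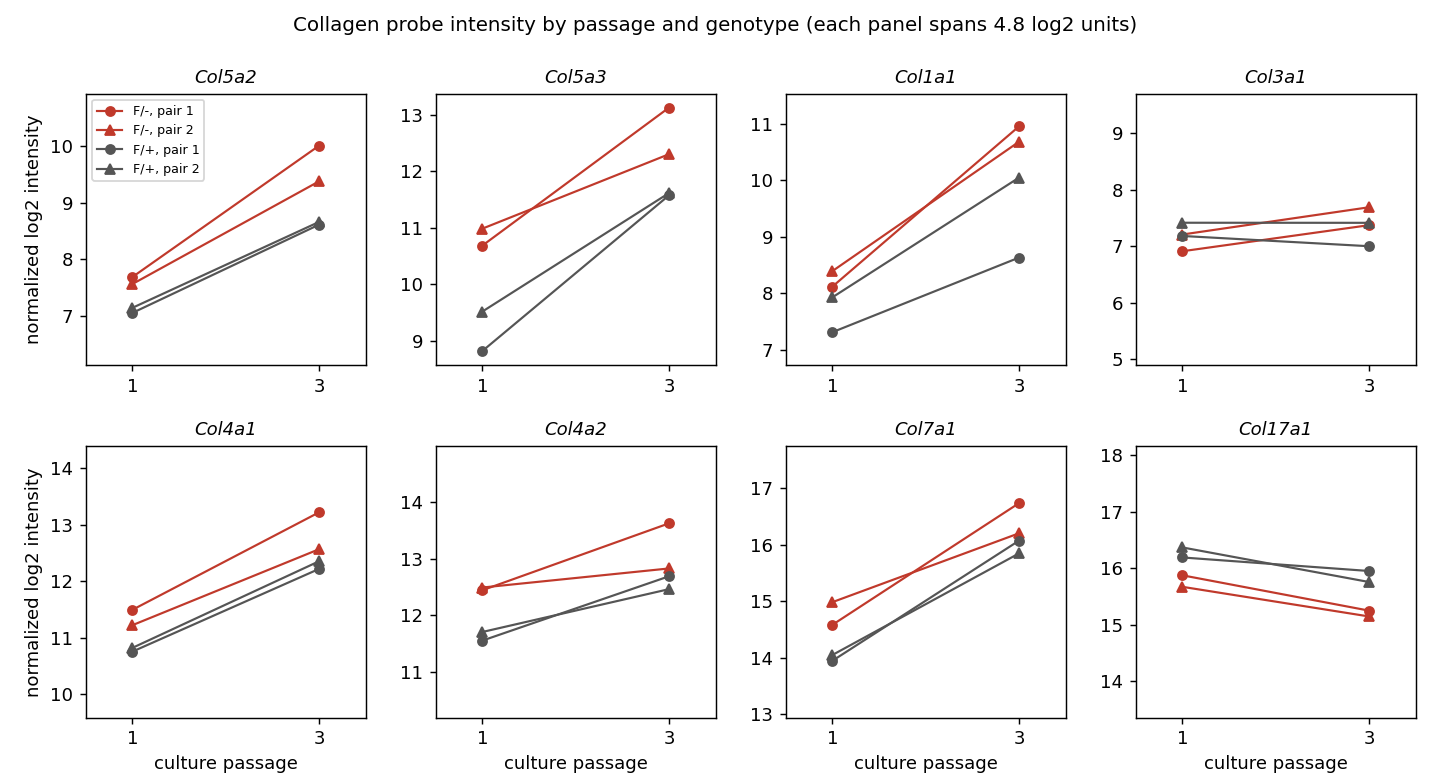
Normalized log2 intensity (vertical axis) of 8 collagen genes at culture passages 1 and 3 (horizontal axis), with F/- in red and F/+ in grey, circles for pair 1 and triangles for pair 2, and a line joining the cultures of one mouse. Col5a2, Col5a3 and Col7a1 read higher at passage 3 than at passage 1 in all 4 cultures and Col17a1 reads lower in all 4, while every panel spans the same range but starts at its own level.

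Among enzymes and chaperones of collagen maturation, 27 of 30 listed genes were measured. For this list and those below, 8.08% of all gene names passed by genotype, 6.31% with passage in F/+ and 5.68% in F/-. In the genotype comparison 4 of the 27 passed, all higher in F/-, with a list median of 0.35. These were the prolyl 3-hydroxylase gene P3h1 (0.80), the lysyl hydroxylase gene Plod1 (0.76), the crosslinking oxidase gene Loxl2 (0.54) and the chaperone gene Fkbp10 (0.39). P3h1 read 0.93, 0.72, 0.76 and 0.78, above 0 on all 4. Fkbp10 just passed (limma adjusted p = 0.0497). At passage 1 in pair 2, Fkbp10 and Loxl2 were near 0 (0.042 and 0.036). The list held 3 higher without background subtraction, with the scanner's own signals or with no filter. It held 6 with a background offset of 0 and 11 with the pair as a block. With median centring the list held 3 higher and 2 lower. From passage 1 to 3, 7 of 27 rose in F/+ and 3 in F/-, and none fell. P4ha2, a prolyl 4-hydroxylase subunit, rose by 1.42 in F/+ (limma adjusted p = 0.009076) and by 1.13 in F/- (adjusted p = 0.02342). The members named beyond the highest and lowest means of a list were chosen after their values were seen.

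Of 10 collagen receptor genes 1 passed, near the 8.08% of all gene names. It was Itgb1, which encodes the shared beta subunit of the collagen-binding integrins, at 0.67 (limma adjusted p = 0.04908). This just passed, and 0 of the list passed without background subtraction, with the scanner's own signals or with no filter. With median centring 0 were higher and 1 was lower. The discoidin domain receptor genes Ddr2 and Ddr1 had 0.66 and -0.26 and did not pass. Partners of collagens XVII and VII in the hemidesmosome and anchoring complex had a median of 0.37, with 2 of 8 higher. These were Lamb3, a laminin-332 chain gene, at 1.33, and Plec, which encodes the linker plectin, at 0.76. With median centring the median of these 8 was -0.27, with 2 higher and 2 lower. Of 7 measured partners of type IV collagen, Lamb1, a laminin chain gene, passed at 0.41, and the list median was 0.26. With median centring 0 of the 7 were higher, 1 was lower and the median was 0.054, and with the scanner's own signals 0 passed. From passage 1 to 3, 0 of the 8 hemidesmosome partners passed in either genotype, while Lamb1 and Agrn, the agrin gene, rose in F/+. With the scanner's own signals 0 of the type IV partners passed with passage, and with median centring 1 hemidesmosome partner rose in F/+.

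Fibril-binding matrix genes had a median near 0 (0.060, or 0.33 with the scanner's own signals), with 2 of 11 measured genes higher. Fn1, the fibronectin gene, read 1.06 and 0.87 at passage 1 and 1.78 and 1.16 at passage 3, with a mean of 1.22 (limma adjusted p = 0.02571). Postn, which encodes the matricellular protein periostin, had a mean of 0.66 (0.02583). Both rose with passage, Fn1 by 4.47 in F/+ and 4.98 in F/-, and Postn by 3.477 and 3.504. Ogn, the osteoglycin gene, passed as higher with passage in both genotypes, but its probe was above background in both channels on 2 of 4 arrays, so no size is given. No other member of this list passed with passage.

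**Figure D4:**
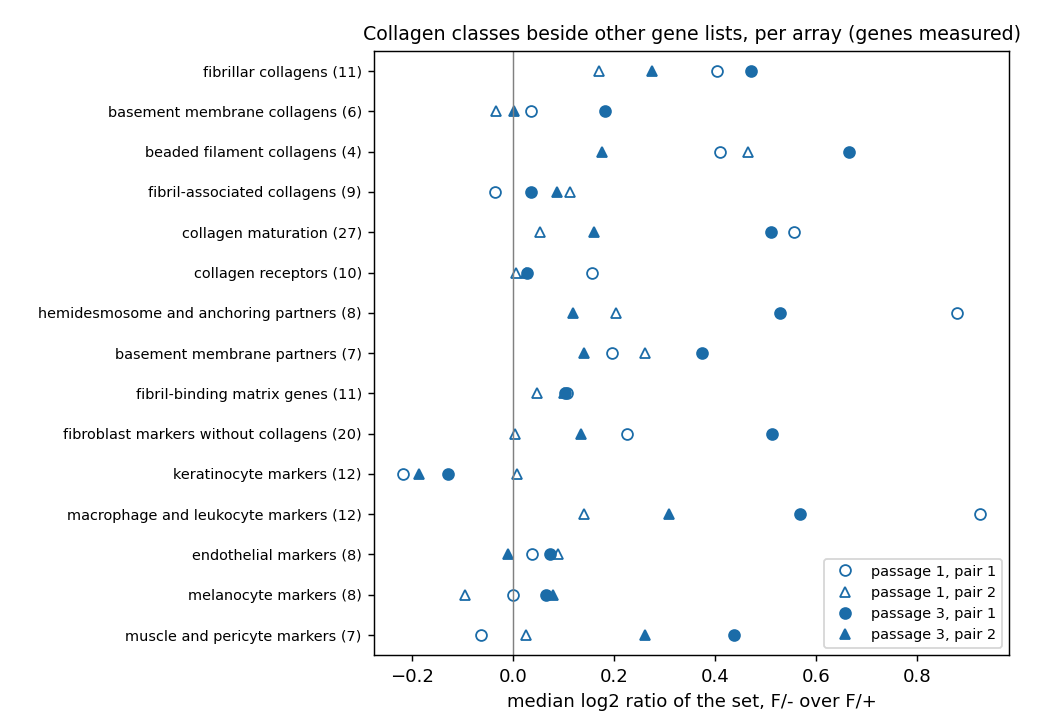
Median log2 ratio of F/- over F/+ on each array (open symbols passage 1, filled symbols passage 3, circles pair 1, triangles pair 2) for 4 collagen classes and 11 lists of other genes, with the number of genes measured in brackets. The fibrillar median is above 0 on all 4 arrays (0.17 to 0.47), and the fibroblast marker median runs from 0.0046 to 0.51.

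Markers of other cell types were set beside these results, since in bulk RNA fewer cells of a type and less RNA per cell cannot be told apart. Of 20 fibroblast markers other than collagens, all measured, 1 passed in the genotype comparison, against 8.08% of all gene names. It was Efemp2, at 0.55, and 16 of the 20 were above 0. With median centring 0 of these markers were higher and 1 was lower. Their median was 0.17 over both passages. By array it was 0.22 and 0.0046 at passage 1 and 0.51 and 0.13 at passage 3, highest at passage 3 in pair 1, as was the fibrillar median (0.47). Vim, the vimentin gene, had the highest mean of the list, at 1.11 (limma adjusted p = 0.07596). Summed over the list, intensity, divided by 1000, was 41.7 to 43.6 in F/- and 27.8 to 38.7 in F/+ at passage 1, and 43.6 to 65.1 and 34.0 to 35.5 at passage 3. Bright members weigh most in this sum. Of these markers Mfap5 was above background in both channels on 0 arrays, and Dpt and Fap on 3. From passage 1 to 3, 1 of the 20 rose in each genotype, Efemp2 in both, and the list medians were -0.080 in F/+ and 0.035 in F/-.

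Keratinocyte markers had a median of -0.13, with 1 of 12 higher in F/- (Epcam, 0.62) and 4 lower, namely Krt14 (-0.66), Krt5 (-0.60), Perp (-0.55) and Krt15 (-0.45). With median centring 0 were higher and 5 lower, and with the scanner's own signals 1 was higher and 1 lower. Their summed intensity, divided by 1000, was 528 to 541 in F/- and 613 to 702 in F/+ at passage 1. At passage 3 it was 526 to 527 and 655 to 703. Bright members weigh most in such a sum. The mean log2 intensity of the list at passage 1 was 13.55 and 13.58 in F/- and 13.60 and 13.68 in F/+. At passage 3 that mean was 13.36 and 13.40 in F/- and 13.55 and 13.59 in F/+. Col17a1, which basal keratinocytes make, was lower too, while Col7a1, which keratinocytes also make, was higher. Of the 12 markers 5 were above 0, among them Trp63 at 0.044, which did not pass. Whether Col17a1 goes with any of these markers was not tested. Of 7 muscle and pericyte markers 2 passed as higher, Acta2 at 0.84 and Tagln at 0.33, and 0 passed with median centring. Tagln was below 0 on both arrays of passage 1 (-0.15 and -0.023) and above 0 on both of passage 3 (0.69 and 0.81). Cnn1 and Tagln rose with passage in both genotypes, Cnn1 by 5.02 in F/+ and 5.32 in F/-, and Tagln by 3.08 and 3.92. Of 12 macrophage and leukocyte markers 2 were higher in F/- (Marco at 1.51 and Lyz2 at 1.27), or 5 with median centring or the scanner's own signals, and with passage 5 fell in F/+ and 2 in F/-. Of 8 melanocyte markers 0 passed by genotype, or 3 as lower with median centring, and 3 fell with passage in F/+ and 4 in F/-. Of 8 endothelial markers 0 passed by genotype, or 2 as higher with the scanner's own signals, and 1, Kdr, fell with passage in both. The part that any of these cell types has in the collagen values was not tested.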

How the data were processed

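RNA of 8 keratinocyte cultures was measured on 4 two-colour Agilent arrays of 45018 spots on 1 slide. The submitters' processing notes name Agilent Feature Extraction 9.1.3.1. The deposited scanner files hold per spot, per the file headers, raw intensity and dye-normalized processed intensity in both channels and a log10 ratio (Cy5 over Cy3). The authors' deposited log10 ratio table equals that column with the sign turned (largest gap 4.96e-06).

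Here raw intensity was background-corrected (normexp, offset 50) and loess-normalized within arrays, with control and outlier spots at weight 0, in limma 3.58.1 (R 4.3.3). Outlier spots were left out and spots of a probe averaged. A probe was kept if 2 arrays or more had it well above background, in either channel, and at most 1 lacked a value (35574 of 41174). Ratios are log2 of Cy3 (F/-) over Cy5 (F/+), fitted with lmFit and eBayes on passage (2 residual degrees of freedom). Passage within a genotype was fitted on separate channels after Aquantile (35475 probes, within-spot correlation 0.741). P-values were adjusted by Benjamini-Hochberg over all probes. Both fits were run on simulated data with planted differences. Errors there were independent between arrays, with no shared mouse, so that run does not cover a mouse effect. The number of arrays limits the precision, and a culture or mouse effect cannot be separated from the spread of 2 pairs.

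A gene's value is its kept probe of highest mean intensity. Every fibrillar, basement membrane and anchoring gene is named, and others that passed the threshold or 1 log2 unit on both arrays of a passage, with a few more chosen after their values were seen. The accession gave the symbol of 57 of 78 member probes, each equal to the file's name, and 21 were matched by symbol. Another 4 probes whose accession or older symbol gives a collagen (Col6a6, Col6a4, Col26a1 and Col11a1) have other names in the files and were not members. Promoter windows, gene order and symbols are from RefSeq (GRCm38.p6), with entries for 32 of 40 genes. The members, classes and gene lists were chosen with earlier results of these data known. Pair numbers mark the same mice at both passages, per the series text, although same-numbered arrays did not deviate together (correlation -0.000464 over probes). Alternatives were the background step, median centring, the scanner's own processed intensity, the filter, the pair as a block, pairs averaged first, quantile normalization, the mean of a gene's probes and leaving out each array.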

Additional observations from a re-analysis of the deposited data

How the results depend on the processing

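The count of collagens past the threshold in the genotype comparison (8) was 6 to 12 with the other settings that used all arrays, but 0 when the arrays of a pair were averaged first. Leaving out 1 array gave 0 to 12. For passage in F/+ (3) it was 6 with a background offset of 0 and 6 with median centring, and 0 to 6 with 1 array left out. For passage in F/- (5) leaving out 1 array gave 0 to 8. With the replicate block on pair number the counts were 12, 4 and 7, where 3228, 1660 and 1559 of all probes passed. The passage fits used the within-spot correlation of all 4 arrays (0.741) where an array was left out, since none could be estimated. Calls over all probes were not counted where an array was left out. The early, late and late-minus-early comparisons had 0 collagens with every setting run. None of the 16 calls named for single collagens turned direction with the settings run. Col18a1, which did not pass, was at 0.22 and, with median centring, passed as lower at -0.53. Median centring also turned the split of all probes called by genotype from 2080 higher and 1064 lower to 917 and 3050, and the cause was not tested. The scanner's own signals called 1817 of all probes by genotype, and a background offset of 0 called 3933. For passage in F/+, 2364 of all probes passed with that offset and 2459 with median centring. The main fit of that comparison had 1146 higher and 859 lower. Few arrays and probes near background limit small ratios.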
